A study of Mus musculus with 6 samples.

Results

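The machinery that copies DNA was followed in mouse acute myeloid leukemia (AML) cells with and without *Phf6*, through 45 DNA replication genes out of the 54532 genes of the deposited table. The genes were taken by name, and cover origin licensing (12 genes), helicase activation (6), the replication fork (19), nucleotide supply (5) and 3 E2F transcription factors. All 45 passed the filter on low counts, which kept 14169 genes.

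Before S phase, the origin recognition complex (ORC), Cdc6 and Cdt1 load the ring-shaped Mcm2–7 helicase onto DNA, a step called licensing that geminin (*Gmnn*) blocks once replication has begun. Cdc45 and the GINS complex then turn the loaded ring into an active helicase, and DNA polymerases, the sliding clamp PCNA and its loader, replication factor C (RFC), copy the opened strands. Many of these genes are known E2F targets and are transcribed as cells enter S phase, so their RNA is widely read as a sign of cycling cells. For these leukemia cells in mice, the paper reports that *Phf6* loss held the cycle in the resting phase, G0. How the RNA levels below relate to cell cycle phase was not tested.

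The libraries were made from GFP+ leukemia cells sorted from mouse bone marrow. Both groups carried RUNX1-ETO9a (RE9a), a truncated form of the RUNX1-ETO fusion, delivered with GFP by retrovirus into fetal liver cells and passed on by transplantation. *WT Phf6,RE9a* cells (Phf6 fl/y, without Cre, here WT libraries 1, 2 and 3) kept *Phf6*, and *VC Phf6,RE9a* cells (Vav1-Cre;Phf6 fl/y, here VC libraries 11, 12 and 13) carry its deletion in the blood lineage, where Vav1-Cre is active. The labels give neither age nor passage and leave unsaid if a group's libraries are from separate mice, so the p-values measure the spread between these libraries only.

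Library totals ran from 15675358 to 16817994 counts. *Phf6*, on the X chromosome, had 1044, 827 and 1142 counts in *WT Phf6,RE9a*, against 388, 314 and 331 in *VC Phf6,RE9a* libraries (log2 fold change -1.66, standard error 0.13, adjusted p = 9.32e-05 by edgeR's quasi-likelihood test), in the direction of the labels. Levels in a library are given as CPM (counts relative to the TMM-scaled library size). Levels of different genes are compared as FPKM, which divides by the listed gene length. That length takes in all annotated exon bases of a gene (4426 for *Mcm7*), not those of a single transcript, so the order of genes depends on it. A log2 fold change above 0 means a higher level in *VC Phf6,RE9a* cells, "adjusted p" is that of edgeR's quasi-likelihood test after Benjamini-Hochberg adjustment over all genes tested, and a gene is said to rise or fall when it is under 0.05. With 3 libraries against 3, an exact permutation test of one gene cannot go below 0.1, so none is quoted.

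Of the 45 replication genes, 23 rose in *VC Phf6,RE9a* cells (51.1%), against 21.5% of all genes tested, and 1 fell, *Rfc2* (2.22%), against 22.7%. The other 21 did not pass, and 17 of these had a log2 fold change above 0, beside 4154 of 7909 over all genes that did not pass. The median log2 fold change was 0.40, beside 0.01 over all genes, and single genes ran from -1.05 (*Rfc2*) to 1.54 (*E2f2*), the only ones called that changed by at least 2-fold. Over all genes 3035 of 14169 were called with such a change, so large changes were rarer among the 45. In 28 genes (62.2%, against 28.9% of all genes) each *VC Phf6,RE9a* library lay above each *WT Phf6,RE9a* library, in *Rfc2* each lay below (28.4% of all genes did so), and in 16 the groups overlapped. Of the 28, 5 did not pass the test, namely *Mcm5*, *Mcm7*, *Rfc1*, *Pola1* and *Pola2*.

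**Figure D1:**
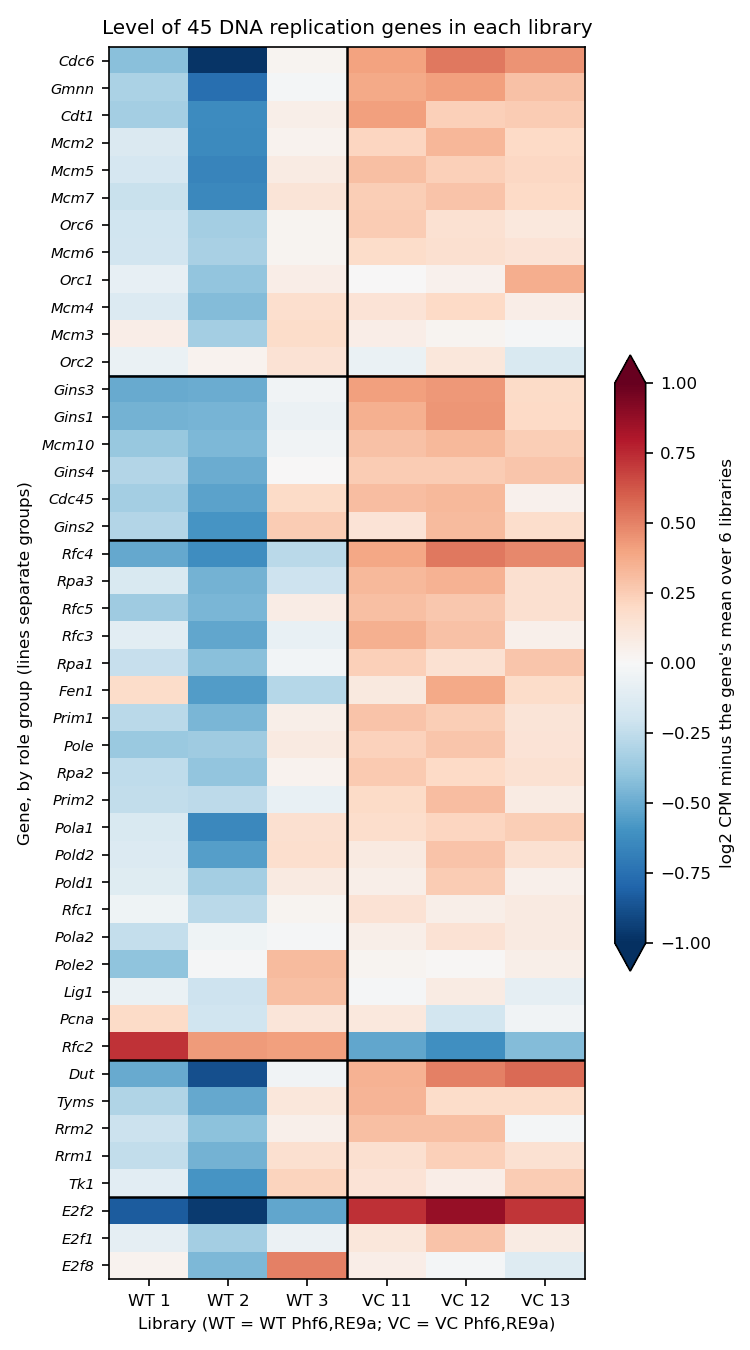
Level of the 45 replication genes in the 6 libraries, as log2 CPM minus the mean of the gene over the libraries (colour), with libraries in columns and genes in rows, ordered within each role group by fold change. The *VC Phf6,RE9a* columns are above the mean for most genes, *Rfc2* runs the other way, and the *WT Phf6,RE9a* columns differ among themselves, library 2 being the lowest.

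**Figure D2:**
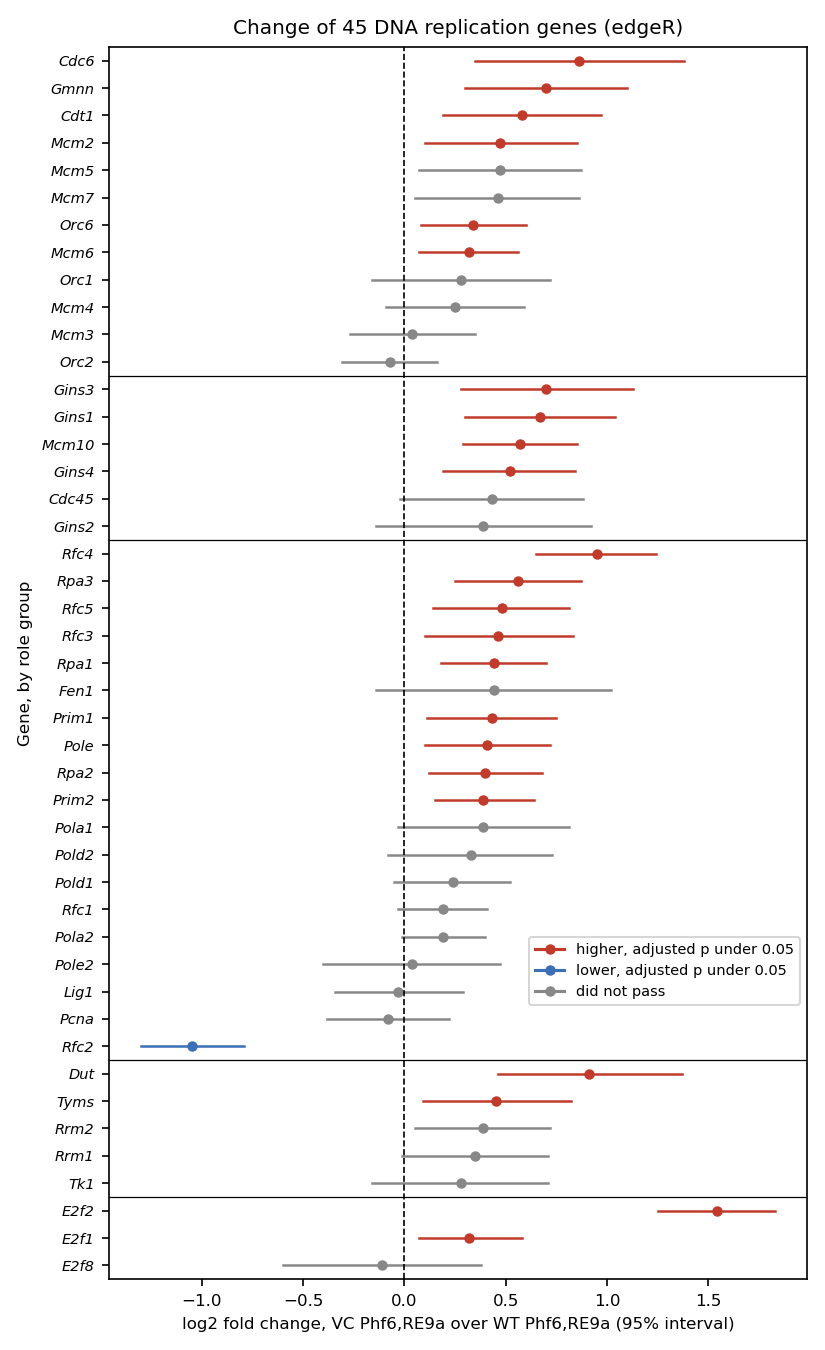
Log2 fold change of each of the 45 genes as *VC Phf6,RE9a* relative to *WT Phf6,RE9a* cells (points) with 95% intervals (lines). The 23 genes in red rose, *Rfc2* in blue fell and the 21 in grey did not pass an adjusted p of 0.05.

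The *WT Phf6,RE9a* libraries differed in the level of these genes far more than the *VC Phf6,RE9a* libraries. Taken as the mean over the 45 genes of log2 CPM around the mean of each gene, the level was -0.21, -0.45 and 0.06 in WT libraries 1, 2 and 3 and 0.21, 0.23 and 0.16 in VC libraries 11, 12 and 13. The mean difference was 0.40, while the *WT Phf6,RE9a* libraries spanned 0.50 and the *VC Phf6,RE9a* libraries 0.08. Among the WT libraries, library 3 was the highest for 41 of the 45 genes (91.1%, against 33.7% of all genes) and library 2 the lowest for 38 (84.4%, against 37.6%). Library 3 was still below all the *VC Phf6,RE9a* libraries in 29 genes (64.4%, against 39.9% of all genes). The median coefficient of variation was 18.6% in *WT Phf6,RE9a*, against 6.09% in *VC Phf6,RE9a* cells, beside 16% and 9.47% over all genes, and it was larger in *WT Phf6,RE9a* cells for 43 of the 45.

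**Figure D3:**
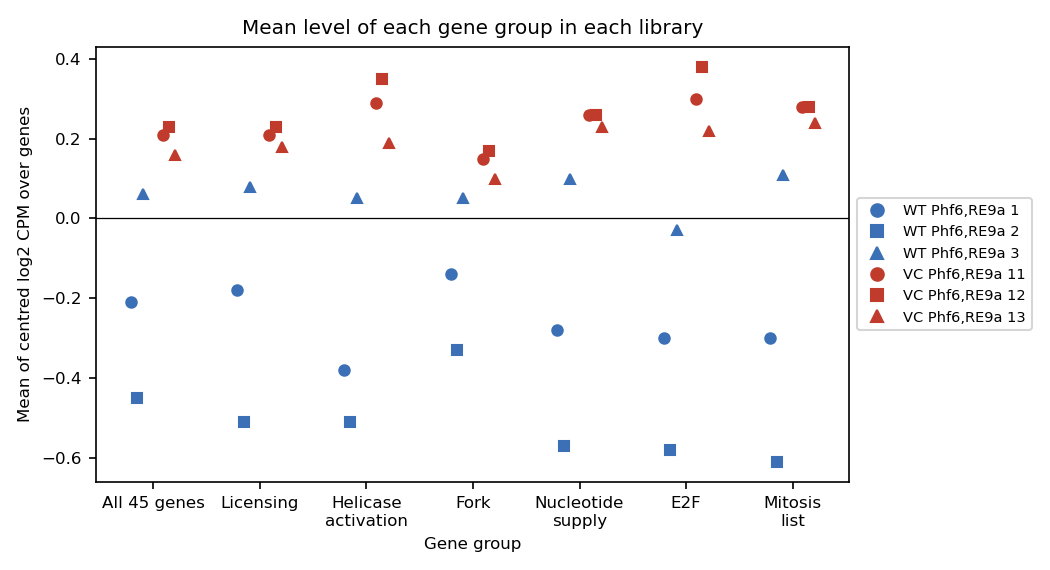
Mean of centred log2 CPM over the genes of each role group and of a list of 18 mitosis genes (vertical axis), in each of the 6 libraries (points). In each group of genes the *VC Phf6,RE9a* libraries lie together above the *WT Phf6,RE9a* libraries, of which library 3 is the highest and library 2 the lowest.

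The number of calls rested on which library was in the comparison. Of the 45, 8 were higher without WT library 1, 14 without library 2 and 34 without library 3. Over all genes tested, 2472 of 14696, 2870 of 14738 and 3132 of 14736 were higher in these fits. Without VC libraries 11, 12 and 13, 8, 8 and 12 of the 45 were higher. Over all genes it was 2179 of 14580, 2193 of 14668 and 2404 of 14757 there, against 3047 of 14169 with all libraries. Where only 8 of the 45 were higher, their share was thus close to that over all genes. The median log2 fold change of the 45 was 0.36, 0.27 and 0.54 without WT libraries 1, 2 and 3. Over all genes it was 0.013, 0.018 and 0.014 there. Without VC libraries 11, 12 and 13 it was 0.40, 0.38 and 0.45 for the 45, and 0.012, 0.011 and 0 over all genes. *Gmnn*, *Mcm10*, *Gins1*, *Rfc4*, *Rpa3*, *Dut* and *E2f2* stayed higher and *Rfc2* lower in each of these 6 fits and under 7 other settings of test, scaling and filter, and the other 16 that rose lost the call in at least 1 fit without a library. Scaling by library totals alone moved the median over all genes by 0.148 and gave 29 higher calls among the 45, whose median was then 0.55 beside 0.16 for all genes.

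Markers of other blood cells moved with the groups. All 10 late granulocyte markers rose (summed level 165 to 507 CPM in *WT Phf6,RE9a*, against 1010 to 3870 CPM in *VC Phf6,RE9a* libraries), as did all 10 erythroid markers (1650 to 2480 against 5590 to 6550 CPM), while 8 of 9 mast cell and basophil markers fell (17000 to 27200 against 4700 to 5170 CPM). Of 8 markers of leukemic and immature myeloid cells 5 rose and 2, *Kit* and *Cd34*, fell (2190 to 3520 against 449 to 707 CPM). The 4 of 7 B cell markers that passed the filter rose (0.746 to 1.69 against 8.97 to 26.9 CPM for the list), as did *Lck*, the 1 of 8 T cell markers that passed it (1.3 to 2.06 against 6.71 to 9.39 CPM). None of these markers was at 0 in all libraries. Their part in the replication genes' changes was not tested, and in bulk RNA more cells of one type and more RNA per cell cannot be told apart.

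Of the 12 licensing genes 6 rose (50%, beside 21.5% of all genes), with a median log2 fold change of 0.40. The 3 largest changes were those of the regulators of loading. *Cdc6* (ENSMUSG00000017499, GRCm38 chromosome 11, 98907801 to 98923940), the ATPase that brings the helicase to ORC, stood at 40.6, 27.5 and 55.7 CPM in *WT Phf6,RE9a* and 72.1, 78.7 and 74.6 CPM in *VC Phf6,RE9a* libraries. The groups did not overlap, and *Cdc6* rose (log2 fold change 0.86, standard error 0.22, adjusted p = 0.0161). Its adjusted p was 0.0503 without WT library 1 and 0.053 without VC library 12. *Gmnn* (ENSMUSG00000006715, chromosome 13, 24751845 to 24761923), the inhibitor of loading, went from 34.9, 25.6 and 43.0 CPM to 56.9, 58.0 and 53.5 CPM (log2 fold change 0.70, standard error 0.17, adjusted p = 0.0137). *Cdt1*, the loading factor that geminin binds, went from 80.7, 65.7 and 107 CPM to 136, 121 and 122 CPM (log2 fold change 0.58, standard error 0.17, adjusted p = 0.0243). Thus the loader *Cdt1* and its inhibitor *Gmnn* both rose, and in both the *VC Phf6,RE9a* libraries lay above each *WT Phf6,RE9a* library. For *Cdt1* the call was lost without WT library 1 (adjusted p = 0.0747) and without VC library 11 (0.0804), 12 (0.0551) or 13 (0.0525).

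Of the 3 ORC subunits among the 45 genes, *Orc6* rose (log2 fold change 0.34, adjusted p = 0.0422), while *Orc1*, which binds ATP in the complex, was at 0.28 (adjusted p = 0.266) and *Orc2* at -0.07 (adjusted p = 0.599, and 0.07 when scaled by library totals alone). Of the other subunits, outside the 45, *Orc5* rose (0.26, adjusted p = 0.0493), and *Orc4* (0.16, adjusted p = 0.202) and *Orc3* (-0.06, adjusted p = 0.614) did not pass. *Orc6* kept its call only without WT library 3, and its adjusted p without each of the other libraries ran from 0.0775 to 0.138. Of the exon bases of *Orc1* 10.8% and of *Orc2* 29.8% are shared with a gene on the opposite strand, and the strand setting of the counting is not given in the sources used here.

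The 6 subunits of the Mcm2–7 ring had log2 fold changes from 0.04 to 0.47, and *Mcm2* (0.47, adjusted p = 0.0458) and *Mcm6* (0.32) rose. *Mcm6* had the highest level of the licensing genes, 55.6, 50.2 and 64.2 FPKM in *WT Phf6,RE9a* and 71.2, 70.6 and 68.7 FPKM in *VC Phf6,RE9a* libraries (standard error of the log2 fold change 0.11, adjusted p = 0.0425). *Mcm5* (0.47, adjusted p = 0.0596) and *Mcm7* (0.46, adjusted p = 0.0663) did not pass, although each *VC Phf6,RE9a* library was above each *WT Phf6,RE9a* library, and both passed with DESeq2 (adjusted p = 0.0307 and 0.0363). *Mcm4* was at 0.25 (adjusted p = 0.203). *Mcm3* changed least, from 222, 167 and 239 CPM to 222, 216 and 210 CPM, with overlapping groups and a log2 fold change of 0.04 (95% interval -0.27 to 0.35). The calls on *Mcm2* and *Mcm6* were lost without WT library 1 (adjusted p = 0.0821 and 0.112) and without VC library 11 (0.0956 and 0.119), 12 (0.131 and 0.108) or 13 (0.0871 and 0.101), and that on *Mcm6* also without WT library 2 (0.0881). Of the 12 licensing genes 1, 4 and 9 were higher without WT libraries 1, 2 and 3. Over all genes it was 2472 of 14696, 2870 of 14738 and 3132 of 14736. Without VC libraries 11, 12 and 13 it was 2, 1 and 2 of the 12, beside 2179 of 14580, 2193 of 14668 and 2404 of 14757. Without WT library 1 or a VC library the share was thus close to or below that over all genes.

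The subunits of the ring assemble in equal numbers, and their levels per listed gene length were compared. The order rests on that length, which is 6956 bases for *Mcm2* and 3589 for *Mcm4*. In mean CPM of *WT Phf6,RE9a* cells, *Mcm2* (210) was above *Mcm7* (193), *Mcm5* (192) and *Mcm4* (163), beside *Mcm3* (209) and below *Mcm6* (266). In *WT Phf6,RE9a* cells *Mcm6* (56.7 ± 7.05 FPKM, SD, n = 3) and *Mcm3* (55.5 ± 9.99) were the highest and *Mcm2* the lowest (30 ± 6.76), with *Mcm5* (47.8 ± 11.9), *Mcm4* (45 ± 9.22) and *Mcm7* (43.3 ± 11.2) between them within one another's SD. In *VC Phf6,RE9a* cells *Mcm6* (70.2 ± 1.28) was followed by *Mcm5* (65.6 ± 2.28), *Mcm7* (59.2 ± 2.1), *Mcm3* (56.8 ± 1.77), *Mcm4* (53.2 ± 2.83) and *Mcm2* (41.3 ± 2.37), so that *Mcm3* stood below *Mcm5* there by more than the SD. In *WT Phf6,RE9a* cells it stood above *Mcm5* by less than the SD.

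**Figure D4:**
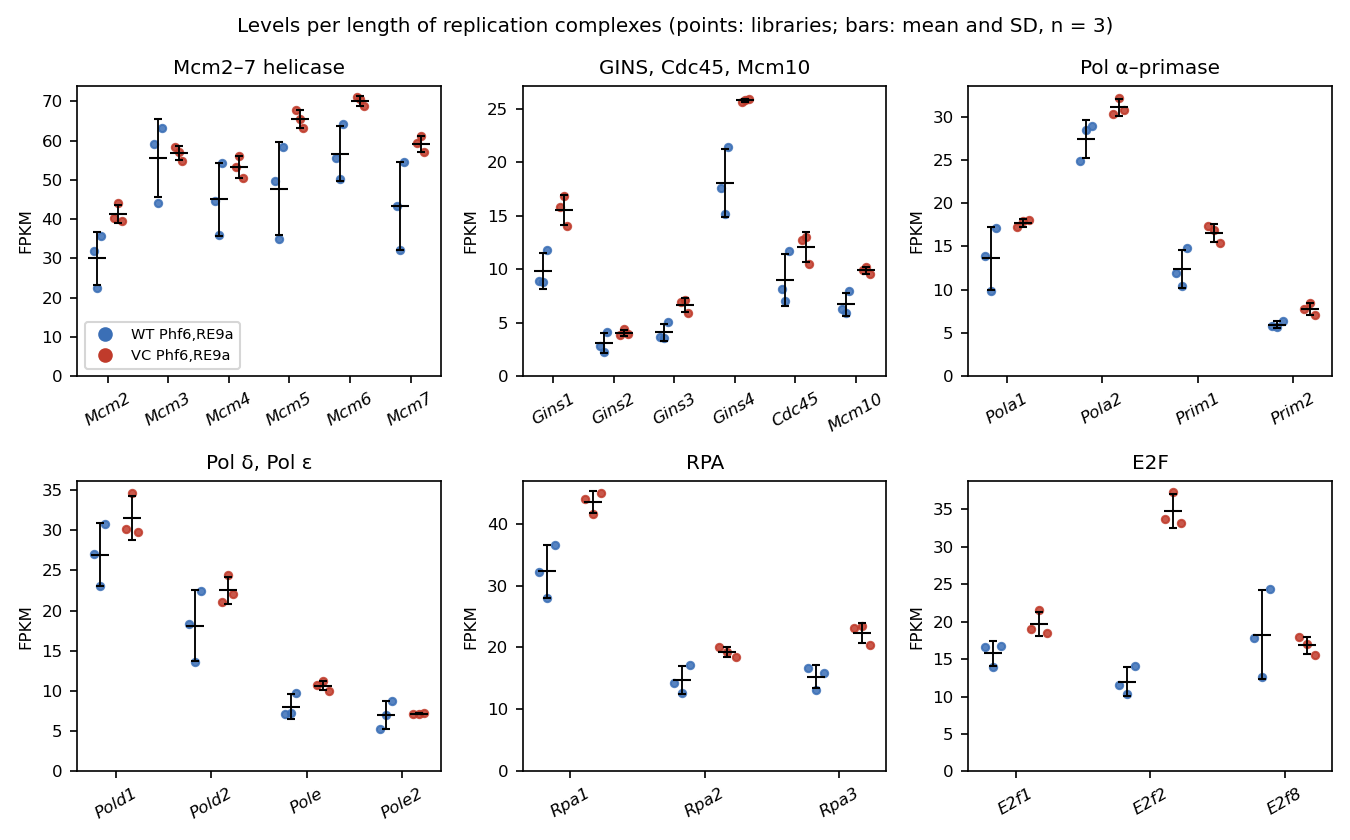
FPKM of the subunits of replication complexes and of the E2F genes in each library (points, blue for *WT Phf6,RE9a* and red for *VC Phf6,RE9a*), with the mean and SD of each group (black, n = 3). In the GINS, RPA and primase genes the red points sit above the blue ones except for *Gins2*. In *Mcm3*, *Mcm4*, *Cdc45*, *Pold1*, *Pold2*, *Pole2* and *E2f8* the groups overlap.

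Helicase activation had the highest median log2 fold change of the 5 role groups, 0.54. Of its 6 genes 4 rose (66.7%, beside 21.5% of all genes). *Gins3*, a GINS subunit, went from 9.8, 9.84 and 13.7 CPM to 19.0, 19.3 and 16.2 CPM (log2 fold change 0.70, standard error 0.18, adjusted p = 0.0164). *Gins1* went from 13.4, 13.5 and 18.0 CPM to 24.2, 25.7 and 21.6 CPM (log2 fold change 0.67, standard error 0.16, adjusted p = 0.0117). *Mcm10*, which is needed for the assembled helicase to start unwinding, went from 48.3, 46.0 and 61.6 CPM to 77.2, 79.1 and 74.7 CPM (log2 fold change 0.57, standard error 0.12, adjusted p = 0.00711). The groups did not overlap in any of *Gins3*, *Gins1* and *Mcm10*. *Gins4* rose by 0.52 (standard error 0.14, adjusted p = 0.0191), from 23.8, 20.6 and 29.2 CPM to 35.0, 35.0 and 35.5 CPM.

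*Gins2* had overlapping groups, with 11.6, 9.36 and 17.2 CPM in *WT Phf6,RE9a* and 15.8, 18.1 and 16.3 CPM in *VC Phf6,RE9a* libraries (log2 fold change 0.39, 95% interval -0.14 to 0.92, adjusted p = 0.207). *Cdc45*, which travels with the helicase, was at 0.43 (adjusted p = 0.107). The GINS proteins form a complex with 1 copy of each. Their FPKM ran in both groups from *Gins4* (18.1 ± 3.18 and 25.7 ± 0.144 FPKM) through *Gins1* (9.82 ± 1.69 and 15.5 ± 1.43) and *Gins3* (4.08 ± 0.812 and 6.62 ± 0.645) to *Gins2* (3.09 ± 0.974 and 4.03 ± 0.304). In this order the listed gene lengths rise, from 1349 through 1516 and 2709 to 4097 bases. In mean CPM *Gins2* was above *Gins3* in *WT Phf6,RE9a* (12.7 against 11.1) and below it in *VC Phf6,RE9a* cells (16.7 against 18.2). *Gins3* and *Gins2* overlapped in *WT Phf6,RE9a* cells. *Gins2* shares 67.3% of its exon bases with *Gse1* on the opposite strand, a gene with 1887.7 mean counts in *WT Phf6,RE9a*, against 1963.7 in *VC Phf6,RE9a* cells, and without strand their reads cannot be told apart. *Gins3* lost its call without WT library 1 (adjusted p = 0.0516) and VC libraries 11 (0.0585) and 12 (0.0612), *Gins4* lost it without WT library 1 (0.0573) and VC libraries 11 (0.057), 12 (0.058) and 13 (0.0587), and 2 of the 4 calls were left without WT library 1 or VC library 11 or 12.

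Of the 19 fork genes 9 rose (47.4%, beside 21.5% of all genes) and *Rfc2* fell (5.26%, beside 22.7%). The median log2 fold change was 0.39. *Rfc4* (ENSMUSG00000022881, chromosome 16, 23113943 to 23127737), a small subunit of the clamp loader, had the largest rise, from 16.7, 15.5 and 19.9 CPM to 31.8, 35.1 and 33.9 CPM (log2 fold change 0.95, standard error 0.13, adjusted p = 0.000951). The 3 RPA genes, which encode the protein that coats single-stranded DNA, all rose. *Rpa3*, the smallest subunit, went from 19.0, 15.1 and 18.2 CPM to 26.6, 26.9 and 23.6 CPM (log2 fold change 0.56, standard error 0.13, adjusted p = 0.012), *Rpa1* was at 0.44 (adjusted p = 0.0151) and *Rpa2* at 0.40 (adjusted p = 0.0303). Both primase genes, *Prim1* (0.43, adjusted p = 0.036) and *Prim2* (0.39, adjusted p = 0.0179), and *Pole*, the catalytic subunit of leading-strand polymerase ε (0.41, adjusted p = 0.0385), rose too. *Rfc5* (0.48, adjusted p = 0.0288) and *Rfc3* (0.46, adjusted p = 0.0432) complete the 9. *Rfc4* shares 12.7% of its exon bases with *Eif4a2* on the opposite strand (log2 fold change -0.12, adjusted p = 0.309), and *Rfc5* 10.7% with *Wsb2*.

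*Pcna*, the sliding clamp, had by far the highest level of the 45 genes, 155 ± 22.1 FPKM in *WT Phf6,RE9a* and 145 ± 13.9 FPKM in *VC Phf6,RE9a* cells. Its libraries had 413, 314 and 393 CPM and 387, 318 and 351 CPM, so that the groups overlapped, and its log2 fold change was -0.08 (95% interval -0.38 to 0.22, adjusted p = 0.634), or 0.06 when scaled by library totals alone. *Lig1*, the ligase that joins Okazaki fragments, stood at 153, 139 and 197 CPM and 159, 170 and 150 CPM, with a log2 fold change of -0.03 (95% interval -0.34 to 0.29, adjusted p = 0.887) that came to 0.11 with library totals alone and 0.01 with upper-quartile factors. Thus the most abundant replication gene and the fork ligase had log2 fold changes near 0, while the 3 RPA genes and 3 of the 5 clamp loader genes (*Rfc3*, *Rfc4* and *Rfc5*) rose. Of the other polymerase genes, *Pola1* (0.39, adjusted p = 0.121) and *Pola2* (0.19, adjusted p = 0.114) of polymerase α, *Pold1* (0.24, adjusted p = 0.155) and *Pold2* (0.33, adjusted p = 0.172) of polymerase δ and *Pole2* of polymerase ε (0.04, adjusted p = 0.895) did not pass, nor did *Rfc1*, the large clamp loader subunit (0.19, adjusted p = 0.15). *Fen1*, the flap nuclease, was the lowest of the 45 genes at 2.43 ± 0.709 and 3.28 ± 0.375 FPKM (log2 fold change 0.44, adjusted p = 0.194), and 78.8% of its exon bases are also annotated to an antisense gene. Of the 19 fork genes 3, 4 and 12 were higher without WT libraries 1, 2 and 3. Over all genes it was 2472 of 14696, 2870 of 14738 and 3132 of 14736. Without VC libraries 11, 12 and 13 it was 2, 3 and 4 of the 19, beside 2179 of 14580, 2193 of 14668 and 2404 of 14757. Without WT library 1 or VC library 11 or 12 the share was thus close to or below that over all genes. Among the fork genes that rose, *Rfc4* and *Rpa3* kept the call in all 6 fits with a library left out. *Rpa1* kept it in 4, *Prim2* in 3, *Rfc3* in 2, and *Rpa2*, *Rfc5*, *Prim1* and *Pole* in 1.

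*Rfc2* (ENSMUSG00000023104, chromosome 5, 134581366 to 134601805, plus strand), another small clamp loader subunit, was the 1 replication gene that fell. It had 392, 319 and 317 CPM in *WT Phf6,RE9a*, against 166, 155 and 176 CPM in *VC Phf6,RE9a* libraries (log2 fold change -1.05, standard error 0.11, adjusted p = 0.000322). Its level per length was 54 ± 7.05 FPKM in *WT Phf6,RE9a* cells, above the 6.03 to 18.9 FPKM of the other RFC genes, and 25.9 ± 1.46 FPKM in *VC Phf6,RE9a* cells, beside 8.27 to 21.6 FPKM. The 3' end of *Rfc2* runs into *Lat2* (chromosome 5, 134600022 to 134615025, minus strand), which encodes an adaptor of mast and B cell receptors. They share 952 exon bases, 15.1% of those of *Rfc2*. *Lat2* fell from 1501, 1543 and 1108 counts to 94, 106 and 121 counts (log2 fold change -3.83, standard error 0.20, adjusted p = 2.84e-05), while the mean count of *Rfc2* fell from 5319 to 2811. Without strand, reads from the shared part cannot be told apart, and the part of *Lat2* in the fall of *Rfc2* was not tested. Leaving out the 8 replication genes that share at least 10% of their exon bases with another gene, chosen after the values were seen, left 21 that rose and a median of 0.41.

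**Figure D5:**
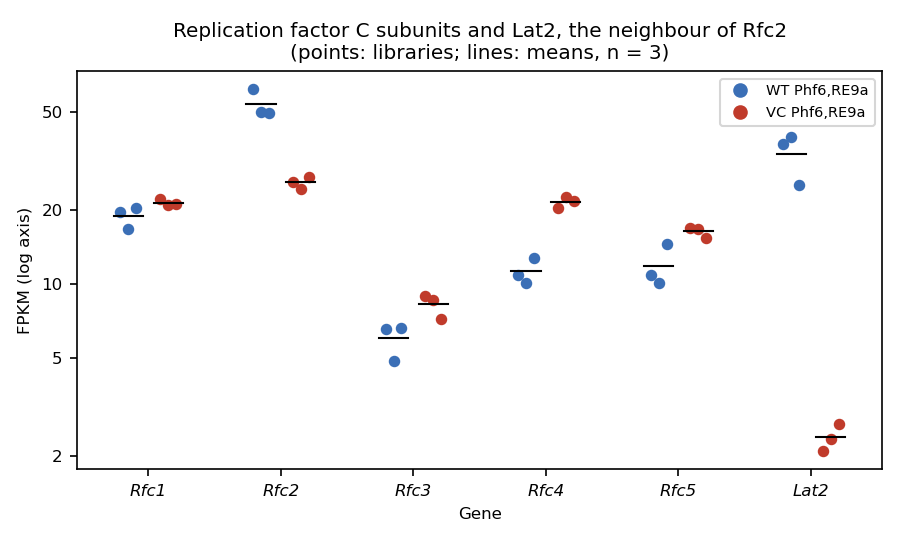
FPKM on a log axis of the 5 replication factor C genes and of *Lat2*, the tail-to-tail neighbour of *Rfc2*, in each library (points, blue for *WT Phf6,RE9a* and red for *VC Phf6,RE9a*), with lines at the group means (n = 3). *Rfc2* and *Lat2* are lower in each *VC Phf6,RE9a* library, and in *Rfc1*, *Rfc3*, *Rfc4* and *Rfc5* each *VC Phf6,RE9a* point lies above each *WT Phf6,RE9a* point.

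Of the 5 genes of nucleotide supply, *Dut* and *Tyms* rose (40%, beside 21.5% of all genes), and the group had a median log2 fold change of 0.39. *Dut* (ENSMUSG00000027203, chromosome 2, 125247190 to 125258608), the dUTPase that keeps uracil out of DNA and yields dUMP, went from 81.1, 62.4 and 112 CPM to 147, 164 and 171 CPM (log2 fold change 0.91, standard error 0.20, adjusted p = 0.00735). *Tyms*, the thymidylate synthase that turns dUMP into dTMP, went from 54.8, 47.3 and 73.2 CPM to 85.7, 77.2 and 77.0 CPM (log2 fold change 0.45, standard error 0.16, adjusted p = 0.0485). The 2 consecutive enzymes of the route to dTMP thus rose together. *Tk1*, the thymidine kinase of the salvage route to dTMP, overlapped between groups, at 58.3, 41.7 and 73.5 CPM and 69.3, 65.9 and 75.2 CPM (log2 fold change 0.28, 95% interval -0.16 to 0.71, adjusted p = 0.269). The ribonucleotide reductase genes *Rrm1* (0.35, adjusted p = 0.103) and *Rrm2* (0.39, adjusted p = 0.0605) did not pass. *Tyms* lost its call without WT libraries 1 (adjusted p = 0.134) and 2 (0.102) and VC libraries 11 (0.14), 12 (0.0958) and 13 (0.09), and without WT library 3 all 5 genes passed, where 1 of them did without WT library 1 or 2 or VC library 11 or 12.

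*E2f2* changed most of the 45 genes. It lies on chromosome 4 from 136172394 to 136196057 (ENSMUSG00000018983) and encodes an activating E2F factor. Its level was 56.1, 51.4 and 69.8 CPM in *WT Phf6,RE9a*, against 166, 184 and 165 CPM in *VC Phf6,RE9a* libraries, a fold change of 2.91 (log2 fold change 1.54, standard error 0.13, adjusted p = 0.000111). The lowest *VC Phf6,RE9a* library was more than 2-fold above the highest *WT Phf6,RE9a* library. *E2f1*, the other activator in the list, rose too, from 52.5, 44.2 and 53.7 CPM to 60.6, 68.3 and 59.4 CPM (log2 fold change 0.32, standard error 0.11, adjusted p = 0.0421). *E2f8*, an atypical E2F that represses E2F targets, spread widely in *WT Phf6,RE9a* cells, at 96.8, 69.1 and 134 CPM, around the *VC Phf6,RE9a* values of 98.7, 93.0 and 86.3 CPM (log2 fold change -0.11, 95% interval -0.60 to 0.38, and 0.03 with library totals alone). Of its exon bases 11.2% are shared with the antisense gene *Gm2788*, which fell (-2.65, adjusted p = 0.000482). In FPKM, *E2f2* stood below *E2f1* in *WT Phf6,RE9a* cells (12 ± 1.91 against 15.8 ± 1.65) and above it in *VC Phf6,RE9a* cells (34.7 ± 2.3 against 19.7 ± 1.63). The listed gene length is 4882 bases for *E2f2* and 3154 for *E2f1*. In mean CPM *E2f2* was above *E2f1* in both groups (59.1 against 50.1 in *WT Phf6,RE9a*, 172 against 62.8 in *VC Phf6,RE9a* cells). *E2f1* kept its call only without WT library 3, and its adjusted p without each of the other libraries ran from 0.0688 to 0.149, so that *E2f2* alone of the 3 was called there.

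The promoters of the replication genes carried E2F sites at a higher share than those of all genes, in the genes that rose as in those that did not pass. RefSeq windows (GRCm38.p6) from 250 bases before to 50 after the start were held for 37 of the 45 genes. The site TTTNNCGC, searched on both strands, was in 15 of 37 (40.5%), beside 5.93% of 27025 genes. These 27025 are all genes with a window, whereas the 37 all passed the count filter. Shares over expressed genes, or over promoters of like base composition, were not computed. It was in 7 of the 18 genes that rose and in 8 of the 19 that did not pass. Of 22 matches in the replication genes 11 (50%) lay at or after the start, beside 15.6% of 1819 matches in all promoters, and 18.2% lay within 100 bases before it, beside 36.7%. The CCAAT box (CCAAT) was in 64.9% of the genes against 41.1% of all, the GC box (GGGCGG) in 75.7% against 38.2%, the CHR element (TTTGAA or TTCGAA) in 24.3% against 21.7%, and the TATA box (TATAAA) in 8.11% against 15.7%. E2F matches could overlap one another. A match is a run of letters and does not show binding.

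The 150 bases before the start are shown for *Mcm6*, which rose and has the most E2F matches, for *Mcm5* and *Pola1*, which have a match and did not pass, and for *Mcm10* and *E2f2*, which rose without a match in this stretch, with matches in capitals.
*Mcm6*, GRCm38 chr1:128359706-128359855, minus strand: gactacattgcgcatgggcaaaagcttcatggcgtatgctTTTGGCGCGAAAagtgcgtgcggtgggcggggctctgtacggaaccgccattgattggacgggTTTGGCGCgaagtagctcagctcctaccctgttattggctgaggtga
*Mcm5*, GRCm38 chr8:75109359-75109508, plus strand: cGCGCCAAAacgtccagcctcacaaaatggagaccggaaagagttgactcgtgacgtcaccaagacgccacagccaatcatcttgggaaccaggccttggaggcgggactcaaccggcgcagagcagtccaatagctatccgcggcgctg
*Pola1*, GRCm38 chrX:93632156-93632305, minus strand: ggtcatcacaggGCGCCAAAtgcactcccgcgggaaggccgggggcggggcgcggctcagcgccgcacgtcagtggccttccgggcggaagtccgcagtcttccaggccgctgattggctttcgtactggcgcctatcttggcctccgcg
*Mcm10*, GRCm38 chr2:5012792-5012941, minus strand: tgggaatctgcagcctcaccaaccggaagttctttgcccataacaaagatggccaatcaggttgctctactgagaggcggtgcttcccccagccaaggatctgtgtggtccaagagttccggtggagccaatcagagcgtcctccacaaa
*E2f2*, GRCm38 chr4:136172124-136172273, plus strand: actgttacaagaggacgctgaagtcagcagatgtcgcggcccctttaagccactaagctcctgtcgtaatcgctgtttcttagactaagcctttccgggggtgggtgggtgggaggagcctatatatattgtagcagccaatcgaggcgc
In *Mcm6* 2 of the 3 matches overlap and read as one run. *E2f2* has its matches 4 and 39 bases after the start, outside the stretch shown.

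The replication genes outside the 45 were followed in 4 further lists. Of these 83 genes 24 rose (28.9%, beside 21.5% of all genes) and 10 fell (12%, beside 22.7%), and the median log2 fold change was 0.26. Of the 17 other licensing and firing genes 7 rose (41.2%) and 0 fell (median 0.34), among them *Recql4*, a helicase needed for origin firing (1.38, adjusted p = 0.00222), *Ccne1*, cyclin E1 (0.86, adjusted p = 0.0148), and *Mtbp*, a partner of the firing factor Treslin (0.84, adjusted p = 0.00163). *Mcm9*, whose helicase acts in repair, was at -0.24 (adjusted p = 0.184). Of 26 other fork genes 8 rose (30.8%) and 4 fell (15.4%), with a median of 0.30. Of the 3 RNase H2 genes *Rnaseh2c* (0.96, adjusted p = 0.00371) and *Rnaseh2a* (0.79, adjusted p = 0.00326) rose and *Rnaseh2b* fell (-0.55, adjusted p = 0.0156). *Top1*, the topoisomerase ahead of the fork (-0.60, adjusted p = 0.00451), and *Pold4*, an accessory polymerase δ subunit (-0.74, adjusted p = 0.0077), fell.

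Of 26 other genes of nucleotide supply 5 rose (19.2%) and 4 fell (15.4%), with a median of 0.18. *Dtymk*, the thymidylate kinase that acts after *Tyms* (0.57, adjusted p = 0.00101), and *Dctpp1*, a nucleotide pyrophosphatase (0.83, adjusted p = 0.00397), rose, while *Ctps2*, a CTP synthase (-1.03, adjusted p = 0.000256), and *Dctd*, a deaminase that makes dUMP (-1.81, adjusted p = 0.0197, at most 2.3 CPM), fell. Of 14 other E2F and retinoblastoma genes 4 rose (28.6%, beside 21.5% of all genes) and 2 fell (14.3%, beside 22.7%), with a median of 0.19. *Rb1*, the retinoblastoma protein that holds activating E2Fs in check, fell from 148, 124 and 137 CPM to 66.1, 73.2 and 60.1 CPM (-1.04, standard error 0.11, adjusted p = 0.000292), and its relative *Rbl2* fell by 0.47 on the log2 scale (adjusted p = 0.00392). *Tfdp2*, a dimer partner of E2Fs, rose from 7.92, 4.68 and 4.96 CPM to 19.7, 13.8 and 17.3 CPM (1.53, adjusted p = 0.00246). *E2f4*, a mostly repressive E2F, rose (0.69, adjusted p = 0.00943), while *Rbl1*, the third retinoblastoma family gene (0.26, adjusted p = 0.11), *E2f3* (-0.08, adjusted p = 0.508) and *Tfdp1* (0.19, adjusted p = 0.252) did not pass. Of the 83 genes 16, 17 and 42 were higher without WT libraries 1, 2 and 3. Over all genes it was 2472 of 14696, 2870 of 14738 and 3132 of 14736. Without VC library 11, 12 or 13 it was 15 of the 83, beside 2179 of 14580, 2193 of 14668 and 2404 of 14757. Except without WT library 3, the share was thus only slightly above that over all genes. Without VC library 13, 6 of the 83 were lower, beside 2613 of 14757.

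A list of 18 mitosis genes was counted beside the replication genes. Of these 11 were higher (61.1%, beside 21.5% of all genes) and 1 lower (5.56%, beside 22.7%), with a median of 0.54. *Aurka*, a spindle kinase, went from 36.4, 27.8 and 51.3 CPM to 75.2, 78.9 and 81.8 CPM (1.03, adjusted p = 0.00486), *Birc5*, survivin, rose by 0.79 (adjusted p = 0.00706), and *Cenpf*, a kinetochore gene, fell by 0.40 (adjusted p = 0.00789). The mean level of the list ordered the libraries as the 45 genes did, with WT libraries 1, 2 and 3 at -0.30, -0.61 and 0.11 around the gene means and *VC Phf6,RE9a* libraries from 0.24 to 0.28. Of the 18, 6 and 17 were higher without WT libraries 1 and 3, beside 2472 of 14696 and 3132 of 14736 over all genes. Without VC libraries 11, 12 and 13 it was 4, 4 and 7, beside 2179 of 14580, 2193 of 14668 and 2404 of 14757.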

How the data were processed

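RNA of GFP+ leukemia cells was sequenced in 3 *WT Phf6,RE9a* and 3 *VC Phf6,RE9a* libraries, as paired-end reads on an Illumina NovaSeq from a TruSeq kit. The authors deposited unnormalized counts of reads for each Ensembl gene, and FPKM values computed by the authors from these counts and the listed gene length. The submitters' processing notes name Bowtie 0.12.0 and mm8, while 98.33% of the matched genes have the start and end of GENCODE M21, so coordinates as deposited are read as GRCm38. Strand setting and counting tool are not given in the sources used here. The deposited table also holds the authors' own DESeq2 comparison (mean normalized counts as signal, log2 fold changes and p-values), which was not used.

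In R 4.3.3, the counts were filtered (filterByExpr), scaled by TMM and compared between the groups with the quasi-likelihood test of edgeR 4.0.16, with Benjamini-Hochberg adjustment over 14169 genes and a threshold of 0.05. Standard errors are the absolute log2 fold change over the square root of F. The mean level per library used log2 of CPM plus 0.5. Library totals of 15675358 to 16817994 put 3 counts at 0.175 to 0.204 CPM, a limit that covers counting error only, since reads carry no molecular identifiers. Within each group the spread between libraries exceeded counting noise (chi-square per tested gene 11.7 to 45.2), so none was a copy of another and each was counted once, which does not show that they come from separate mice. The alternatives were other scalings and filters, DESeq2 1.42.0, limma 3.58.1 on log2 (FPKM + 1), a minimum of 2-fold and each library left out. Exon overlap came from GENCODE M21, and near copies from aligned transcripts (at least 200 bases and 95% identity). Of the 45 genes 5, *Mcm7*, *Pcna*, *Rfc5*, *Rrm2* and *Tyms*, have a near-identical pseudogene, with mean counts of at most 48.3. Figures were drawn with matplotlib 3.10.9.

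The members, lists and named genes were chosen with earlier results of these data known. In each group of replication genes full values are given for the 3 called genes with the largest change, the gene with the highest FPKM and the one with the smallest change, and in each other list for the 3 genes with the smallest p and the one with the largest change against the list's median. Where other genes are given values, they were added, with their values known, to account for the 45 or to give the other subunits or relatives of a gene named.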

Additional observations from a re-analysis of the deposited data

How the results depend on the processing

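The number of replication genes that rose was 18 to 29 under the other scalings, filters and tests, and the median log2 fold change 0.38 to 0.55. A minimum of 2-fold left 1 higher of the 45 (*E2f2*), a lower share than the 1410 of 14169 over all genes. It left 1 lower (*Rfc2*), beside 1625 of 14169. The higher one was 1 of the E2F genes, with 0 in the licensing, helicase activation, fork and nucleotide supply groups. Of the 83 other replication genes 2 higher and 3 lower were left, and in the mitosis list 1 higher and 0 lower. Scaling by library totals alone gave 4 higher in nucleotide supply, 37 higher and 6 lower of the 83, and 0 lower in the mitosis list, and over all genes 4048 higher and 2474 lower against 3047 and 3213. With this scaling *Orc2* (0.07), *Pcna* (0.06), *Lig1* (0.11) and *E2f8* (0.03) changed sign, as did *Lig1* with upper-quartile factors (0.01). By limma 1 gene rose in each of the nucleotide supply and E2F groups, and without a count filter 1 E2F gene. Without the 8 genes that overlap another gene, *Rfc2* among them, 0 were lower. With each library left out in turn, which leaves fewer samples, the higher calls ran from 8 to 34 for the 45 genes, 1 to 9 for licensing, 2 to 6 for helicase activation, 2 to 12 for the fork, 1 to 5 for nucleotide supply, 1 to 2 for E2F, 15 to 42 for the 83 (6 to 11 lower) and 4 to 17 for mitosis, and the log2 fold change from -0.11 to 0.14 for *Mcm3*, -0.14 to 0.23 for *Pole2*, -0.14 to 0.12 for *Lig1* and -0.33 to 0.15 for *E2f8*. Over all genes the higher calls in these fits ran from 2179 of 14580 to 3132 of 14736, and the lower calls from 2511 of 14580 to 3338 of 14736. No paired analysis was possible because the groups share no replicate number with the titles read as 1 to 3 and 11 to 13. Whether the latter stand for 1 to 3 of one line or animal is not given in the labels. Of the 45 genes *Fen1* had the fewest counts, 66 to 155 in a library, and its counting error is the largest.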
